A study of Rattus norvegicus with 8 samples.

Results

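Alox15 and 8 further genes of eicosanoid synthesis were followed in rat periodontal ligament before and after the teeth meet. The 9 genes, out of 17337 in the deposited count table, are Alox15, Alox5, Alox5ap, Ptgs1, Ptgs2, Ptges, Ptges3, Ptgis and Ptgds. Alox15 was selected on its measured counts in these libraries, which earlier results had shown to be abundant at postnatal day 18 (P18) and lower at day 28 (P28). Its age difference is therefore a description with no test. The other 8 were listed as genes of the same pathway, with those results known.

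The ligament, which anchors the tooth root to bone, was captured by laser micro-dissection from the cervical region of teeth of untreated, normally grown rats (Rattus norvegicus). RNA sequencing libraries were made with a kit for very small inputs of RNA. The groups were P28 (28 days old, 4 animals) and P18 (18 days old, 4 animals); the labels name no strain, genotype or agent, and occlusal contact is reached between these ages. Each library was taken as 1 animal.

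Total counts ran from 5252693 to 17803006 at P28 and from 10863769 to 26645656 at P18, with the lowest total in P28 replicate 4, which was also the library least like the others of its age. The ligament genes Postn, Col1a1, Col3a1, Dcn and Lum were abundant in every library. Aspn, another gene known from this ligament, had 0 CPM in all 4 P28 libraries and at most 0.0904 CPM at P18. CPM is the number of counts per 1000000 TMM-scaled counts of a library. Among 10472 genes tested with edgeR's quasi-likelihood test, 0.936% were called at an adjusted p under 0.05.

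Eicosanoids are signalling lipids made from arachidonic acid, which phospholipases release from membranes. Cyclooxygenases (Ptgs1 and Ptgs2) turn it into an unstable intermediate from which terminal synthases make prostaglandins, prostacyclin and thromboxane. Lipoxygenases make leukotrienes and hydroxylated fatty acids instead. In periodontal tissue, prostaglandin E2 is known as a mediator of inflammation and of bone remodelling.

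Alox15 encodes a lipoxygenase that can oxygenate arachidonic acid while it is still part of a membrane lipid. In rabbit reticulocytes the enzyme is known to attack mitochondrial membranes as the cells mature, and in mice it is known from resident macrophages. Its level was 36.6, 46.4, 185 and 159 CPM in P28 replicates 1 to 4, against 372, 908, 1340 and 2141 CPM in P18 replicates 1 to 4. Every P28 library lay below every P18 library, and within each age the libraries differed widely. The highest library was 5.06 times the lowest at P28 and 5.75 times at P18. In raw counts this was 4102 in all at P28 and 102755 at P18. The share of a library's counts ran from 0.0035% to 0.0164% at P28 and from 0.0379% to 0.225% at P18. The mean was 107 ± 76.3 CPM at P28 and 1190 ± 748 CPM at P18 (SD, n = 4 each), a log2 fold change of -3.48 ± 0.61 (SE). Leaving out any 1 library moved it between -3.89 and -3.03. Other lipoxygenase genes lie near Alox15 on rat chromosome 10, and whether reads from similar stretches were shared between them was not tested. Alox12, the platelet-type lipoxygenase, had 10.3, 10.9, 1.88 and 11.0 CPM in P28 replicates 1 to 4, against 0, 16.9, 0.128 and 11.5 CPM in P18 replicates 1 to 4.

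**Figure D1:**
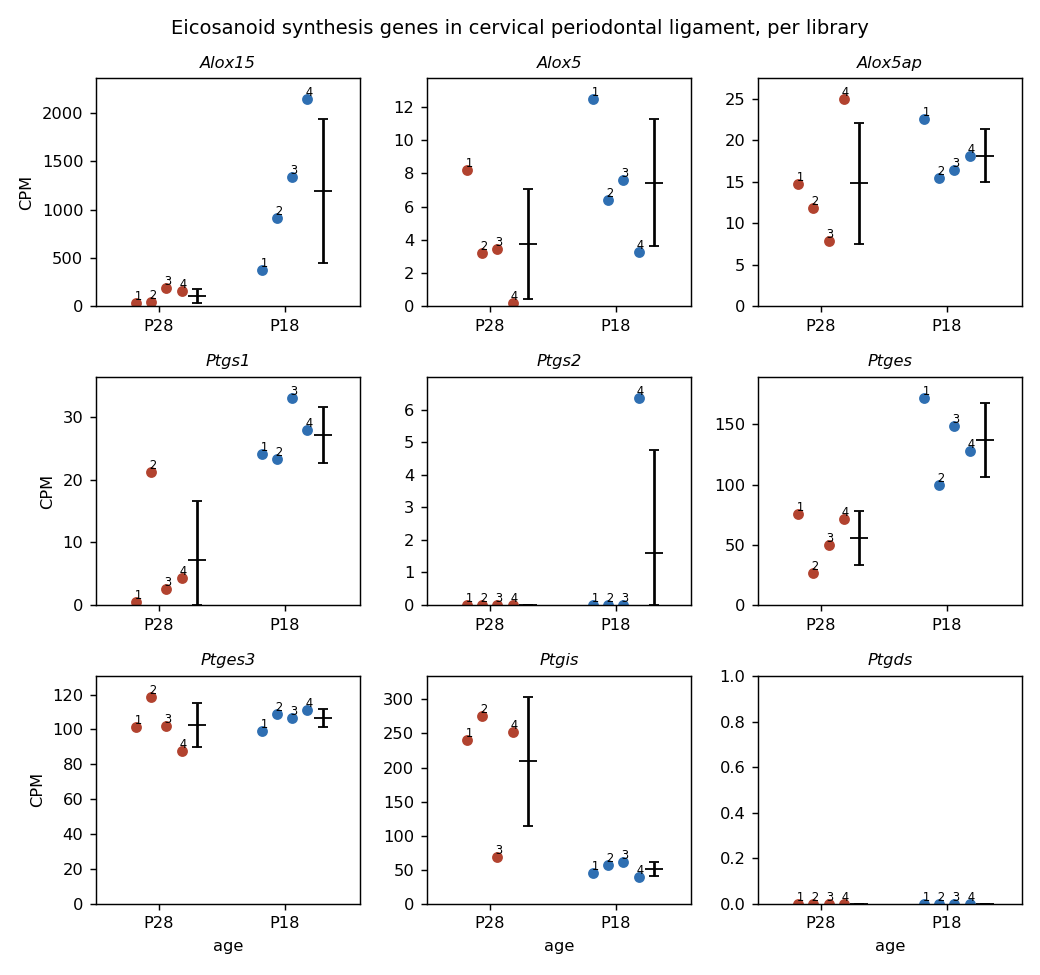
Level (CPM, linear axes from 0) of the 9 eicosanoid synthesis genes in the 4 P28 and 4 P18 libraries. Points are libraries, numbered by replicate; bars give the mean and SD of an age and are cut at 0. Alox15, Ptgs1 and Ptges lie lower in every P28 library than in any P18 library, and Ptgis higher.

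Of the 5 genes whose levels ran most like Alox15 over the 8 libraries, 3 are known from red cells and their precursors. Likeness was the root mean square difference of log2 CPM after centring each gene on its own mean, over 7648 other genes with a mean log2 CPM of at least 3. It is a description, since genes of any 1 library share its depth and capture. It also takes in the fall for which Alox15 was chosen, so genes with a like fall come near. How many of the genes compared are known from red cells was not counted. Alas2, the enzyme of haem synthesis in erythroid cells, came nearest at 0.605, where the spread of Alox15 itself on that scale was 2.03. It was followed by Rsad2, an interferon-induced gene (0.736), and by Lgals5, a galectin known from rat reticulocytes (0.872). Slc4a1, the anion exchanger of the red cell membrane, was at 0.959, and Hapln1, a link protein of hyaluronan matrix, at 1.04.

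Alas2 had 23.5, 12.4, 86.4 and 72.4 CPM in P28 replicates 1 to 4, against 66.3, 206, 382 and 463 CPM in P18 replicates 1 to 4. As for Alox15, replicates 3 and 4 were the higher libraries at P28. At P18, replicate 1 was the lowest and replicate 4 the highest for both genes. Unlike Alox15, Alas2 overlapped between the ages, since P28 replicates 3 and 4 lay above P18 replicate 1. Its log2 fold change was -2.52. The difference in log2 CPM between Alox15 and Alas2 was 0.64, 1.89, 1.10 and 1.13 in the P28 libraries and 2.49, 2.14, 1.81 and 2.21 in the P18 libraries. Relative to Alas2, Alox15 thus lay lower in 3 of the 4 P28 libraries than in any P18 library. Centred within each age, the nearest genes were Tex10 (0.281), Tpp1 (0.345), Alas2 (0.36), Smyd3 (0.414) and Echdc3 (0.415), where the spread of Alox15 was 0.984. Alas2 was in both groups of nearest genes, while Lgals5 and Slc4a1 were only in the group over the 8 libraries. Tex10, Tpp1, Smyd3 and Echdc3 had log2 fold changes above 0 (0.97, 0.85, 1.54 and 1.29). They thus lay near Alox15 within an age, without the same order of libraries throughout, and did not share the age difference. The order differed for Alas2 as well, with P28 replicate 1 above replicate 2, where Alox15 had it below.

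**Figure D2:**
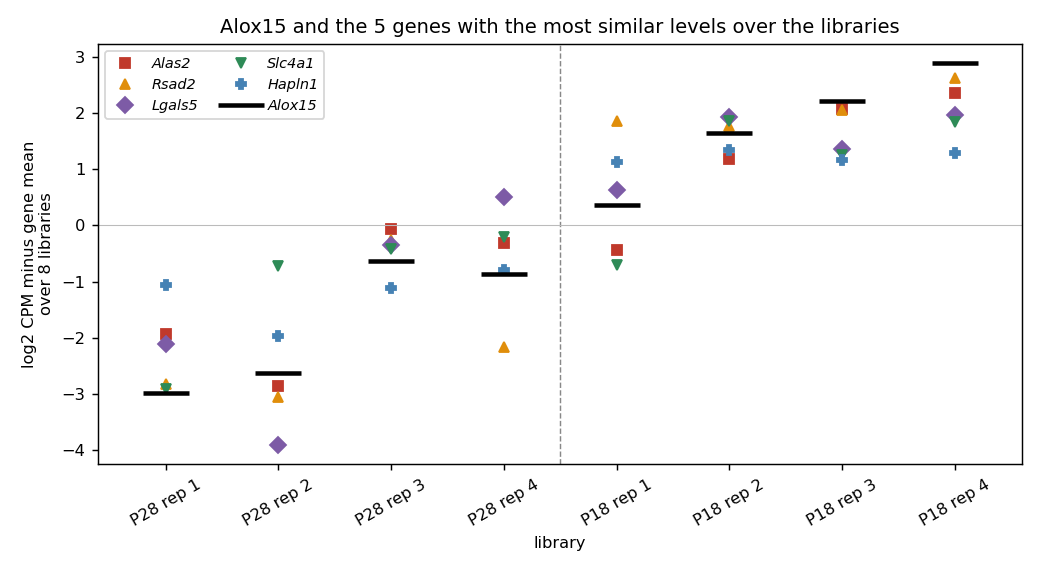
Log2 CPM minus the gene's mean over the 8 libraries, for Alox15 (black bars) and the 5 genes most like it (coloured symbols), with P28 libraries left of the dashed line and P18 libraries right of it. Alox15 and Alas2 are both low in P28 replicates 1 and 2 and both highest in P18 replicate 4.

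Marker lists of cell types went different ways between the ages. Of 8 erythroid genes 7 were in the table and tested; all 7 had log2 fold changes below 0 (median -1.86), 0 were called by edgeR in either direction, and 4 had an unadjusted p under 0.05, as had 14.5% of all genes tested. Their summed level ran from 603 to 4069 CPM at P28 and from 2425 to 8097 CPM at P18, and none was at 0 in all libraries. Most of that sum was Hbb, a beta-globin gene, with 565 to 3913 CPM at P28 and 2293 to 7459 CPM at P18. The 7 log2 fold changes ran from -2.52 for Alas2 to -0.25 ± 0.81 for Hba2. Hba1 was at -0.79 ± 1.06 and Hbb at -1.13 ± 0.50. Of the 7 genes, only Hbb and Alas2 rose at each step from P18 replicate 1 to replicate 4, as Alox15 did. Ahsp had 195 CPM in P18 replicate 2, its highest library of that age, and 33.8 CPM in P18 replicate 3, its lowest. The stepwise rise at P18 was not particular to erythroid genes. Tex10 had it too, as did Adgre1, Cma1 and Cdh5 of the macrophage, mast cell and endothelial lists. How many of all genes rise in this way was not counted. The part of erythroid cells in the Alox15 difference was not tested. In bulk captures, fewer cells of a type and less RNA per cell cannot be told apart.

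Of the 10 macrophage genes tested, 9 had log2 fold changes above 0 (0 called by edgeR, 4 with an unadjusted p under 0.05, against 14.5% of all genes), with sums of 488 to 1665 CPM at P28 and 461 to 891 CPM at P18. Eosinophil genes summed to at most 1.88 CPM at P28 and 12.3 CPM at P18, and 0 of 7 passed the filter on low counts. Most of the highest sum was Siglec5, a sialic acid receptor, with 12.1 CPM in P18 replicate 3 and 0 in the other P18 libraries. Prg3 and Rnase2 reached 1.01 and 1.12 CPM at P18. Epx and Prg2, which encode granule proteins of these cells, had at most 0.0815 and 0.418 CPM at P28 and 0.18 and 0.815 CPM at P18, and Ccr3 and Il5ra had 0 counts in all 8 libraries. Of 8 neutrophil genes tested, 7 had log2 fold changes below 0 and 1 above (median -1.88). By edgeR 0 were called, and 2 had an unadjusted p under 0.05, against 14.5% of all genes. The neutrophil sums were 25.4 to 299 CPM at P28 and 676, 959, 36.6 and 626 CPM in P18 replicates 1 to 4. Of 5 mast cell genes tested, 4 had log2 fold changes below 0 and 1 above (median -0.82, 0 called by edgeR). The mast cell sums were 0.734 to 218 CPM at P28 and 55.7 to 220 CPM at P18. Of 4 enamel organ genes tested, all 4 had log2 fold changes below 0 (median -7.43). Of these, edgeR called 2 lower and 0 higher, where 0.42% of all genes were called lower. All 7 enamel organ genes in the table summed to 5.62 to 638 CPM at P28 and to 4858, 382, 1329 and 15.1 CPM in P18 replicates 1 to 4. The part of these cells in the Alox15 difference was not tested.

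**Figure D3:**
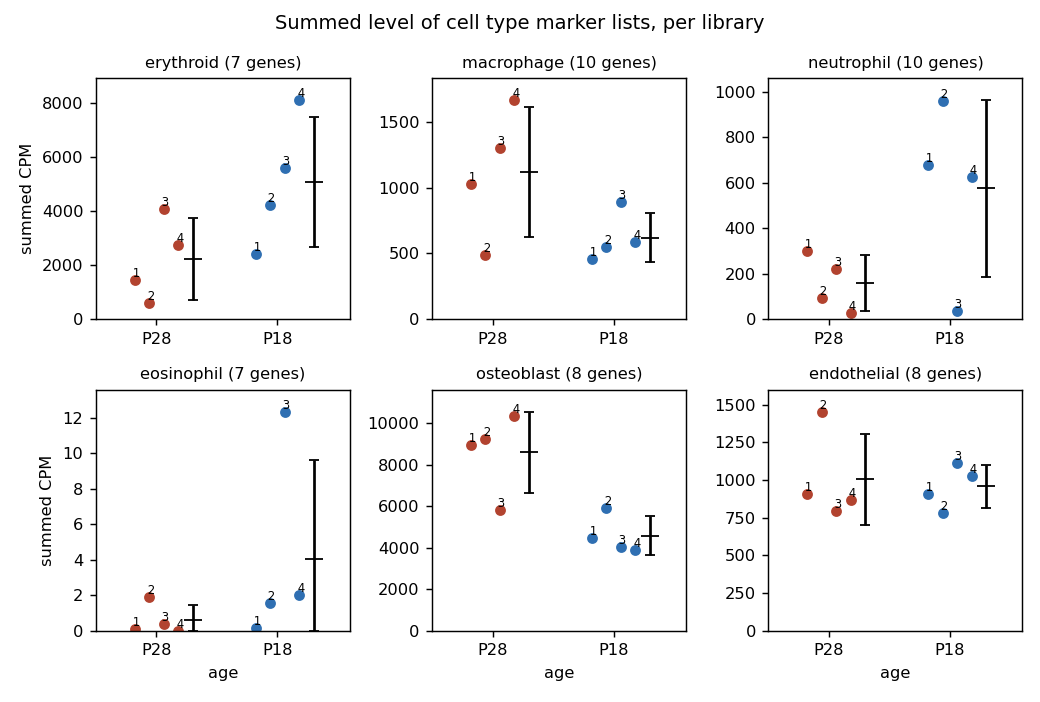
Summed CPM of 6 marker lists in each library (linear axes from 0; points numbered by replicate; bars are mean and SD of an age, cut at 0). The erythroid sum is highest in P18 replicate 4 (8097 CPM) and lowest in P28 replicate 2 (603 CPM), the macrophage sum is highest in P28 replicate 4, and the eosinophil sum is at most 12.3 CPM.

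The cyclooxygenases differed in whether they were detected at all. Ptgs1, the cyclooxygenase that most tissues make steadily, had 0.411, 21.2, 2.53 and 4.37 CPM in P28 replicates 1 to 4, against 24.0, 23.3, 33.05 and 27.9 CPM in P18 replicates 1 to 4. The P18 libraries lay close together, and all 4 P28 libraries lay below them, P28 replicate 2 only just. The log2 fold change was -1.93 ± 0.91 and did not pass the test (by edgeR, adjusted p = 0.359), with a coefficient of variation of 134% at P28 and 16.5% at P18. Without P28 replicate 2 it was -3.51 (adjusted p = 0.0730), and with voom, which weights libraries by quality, -3.42 (adjusted p = 0.0718). That library also held the highest summed level of epithelial genes, 5505 CPM against 60.8 to 1012 CPM in the other P28 libraries and 24.0 to 576 CPM at P18. The part of epithelial cells in the Ptgs1 level was not tested.

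Ptgs2, the cyclooxygenase induced by inflammation, growth factors and mechanical load, had 0 counts in all 4 P28 libraries and in P18 replicates 1, 2 and 3. In P18 replicate 4 it had 125 counts, or 6.36 CPM. With 0 reads seen, up to 3 would still be possible, or 0.176 to 0.624 CPM in the P28 libraries and 0.108 to 0.271 CPM in those 3 P18 libraries. Ptgs2 did not pass the filter on low counts and was not tested.

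Ptges encodes the inducible membrane synthase that makes prostaglandin E2. It had 75.3, 26.5, 50.2 and 71.8 CPM in P28 replicates 1 to 4, against 172, 99.9, 149 and 128 CPM in P18 replicates 1 to 4. No P28 library reached the lowest P18 library. The mean was 56.0 ± 22.5 CPM at P28 and 137 ± 30.6 CPM at P18 (SD, n = 4 each), a log2 fold change of -1.29 ± 0.32 that missed the threshold (by edgeR, adjusted p = 0.0876). Ptges was called by the Wald test of DESeq2 (adjusted p = 0.0109; 5.49% of genes were called there) and by limma's voom with quality weights (adjusted p = 0.0466; 2.93% of genes).

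The stretches of 250 bases before the starts of the genes for these 3 enzymes are shown because their counts differ in kind: steady at P18 and scattered at P28 for Ptgs1, 0 in 7 of 8 libraries for Ptgs2, and lower in every P28 library for Ptges. They come from RefSeq (assembly GRCr8, not the build of the counts), where 6 of the 9 genes matched an entry. Capitals mark matches on either strand to 4 short motifs. Of 33469 such windows, 12.9% hold the TATA box letters TATAAA and 5.6% the E-box letters CACGTG. The GC box letters GGGCGG are in 30.5% and the letters CCAAT in 34.0%.
Ptgs1, chr3:39981169-39981418, plus strand: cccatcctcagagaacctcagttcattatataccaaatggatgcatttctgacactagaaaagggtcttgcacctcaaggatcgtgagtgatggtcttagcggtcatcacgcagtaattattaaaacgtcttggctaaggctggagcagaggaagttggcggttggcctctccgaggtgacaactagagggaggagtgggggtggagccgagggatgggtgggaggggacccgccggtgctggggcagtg
Ptgs2, chr13:64713813-64714062, plus strand: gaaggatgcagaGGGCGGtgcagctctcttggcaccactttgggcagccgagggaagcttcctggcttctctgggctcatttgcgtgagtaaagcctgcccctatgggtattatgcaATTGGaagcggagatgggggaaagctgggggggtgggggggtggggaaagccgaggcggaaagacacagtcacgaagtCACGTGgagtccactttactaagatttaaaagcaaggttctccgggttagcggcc
Ptges, chr3:34586988-34587237, minus strand: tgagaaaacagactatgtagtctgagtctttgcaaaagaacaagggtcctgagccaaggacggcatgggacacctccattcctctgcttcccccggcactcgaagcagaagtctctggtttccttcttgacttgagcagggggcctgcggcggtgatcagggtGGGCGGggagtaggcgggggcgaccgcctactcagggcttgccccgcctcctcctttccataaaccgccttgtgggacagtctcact
The Ptgs2 window held 1 E-box match, 1 GC box match and 1 CCAAT match, none of them overlapping, the Ptges window 1 GC box match, and the Ptgs1 window 0 matches to any of the 4. No TATA box match was found in any of the 3, which says only that these letters are not in the windows. The Ptges3 window, at 70.4% G and C, held 33 CpG and 4 GC box matches, where the median over all windows was 51.2% and 5 CpG.

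Ptges3 encodes p23, a co-chaperone of heat shock protein complexes that also has prostaglandin E synthase activity. It was the steadiest of the 9 genes. Its level was 101, 119, 102 and 87.8 CPM in P28 replicates 1 to 4, against 99.1, 109, 106 and 111 CPM in P18 replicates 1 to 4. The ages overlapped, with a log2 fold change of -0.05 ± 0.20 (by edgeR, adjusted p = 0.936).

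Ptgis, the synthase of prostacyclin, a lipid that widens vessels and keeps platelets from clumping, rose at P28. It had 241, 275, 69.1 and 252 CPM in P28 replicates 1 to 4, against 44.7, 56.8, 61.7 and 39.7 CPM in P18 replicates 1 to 4. All P28 libraries lay above all P18 libraries, but P28 replicate 3 stood close to the P18 range. The mean was 209 ± 94.6 CPM at P28 and 50.7 ± 10.3 CPM at P18 (SD, n = 4 each), a 4.13-fold difference with a log2 fold change of 2.05 ± 0.37 (by edgeR, adjusted p = 0.0300). Over all genes 0.516% were called higher. The call ended without P28 replicate 1 or without any of the P18 replicates (adjusted p of 0.0665 to 0.102). The log2 fold change stayed between 1.89 and 2.34 whichever library was left out.

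Prostacyclin synthase is known from endothelium, vascular smooth muscle and fibroblasts. Of the 8 endothelial genes, 0 were called by edgeR and 1 had an unadjusted p under 0.05, against 14.5% of all genes. The 8 endothelial genes summed to 792 to 1451 CPM at P28 and 783 to 1115 CPM at P18. Their log2 fold changes were above 0 for 4 and below 0 for 4, with a median of -0.17. They ran from 0.95 for Pecam1, the adhesion molecule with the low p, to -0.91 for Cdh5, the cadherin of endothelial junctions. The 8 mural cell genes summed to 457 to 1157 CPM at P28 and 592 to 1032 CPM at P18. Of these, 4 had log2 fold changes above 0 and 4 below (median -0.13). They ran from 1.49 for Cspg4 to -2.07 for Acta2, the 2 with an unadjusted edgeR p under 0.05, and 0 were called. Of 8 osteoblast genes 1 was called higher by edgeR (Bglap, the bone matrix protein osteocalcin) and 0 lower, against 0.516% and 0.42% of all genes. Osteoblast log2 fold changes were above 0 for 5 and below 0 for 3 (median 1.36), and 4 had an unadjusted edgeR p under 0.05. The osteoblast sums were 8967, 9223, 5815 and 10358 CPM in P28 replicates 1 to 4, lowest in replicate 3 as Ptgis was, and 3872 to 5928 CPM at P18. The genes of the list did not all go this way. At P28, Bglap (723 CPM) and Ibsp (2726 CPM) were lowest in replicate 3, and Spp1 (719 CPM) was highest there. The 9 ligament fibroblast genes in the table summed to 173037, 138017, 196187 and 150835 CPM in P28 replicates 1 to 4, highest in replicate 3, where Ptgis was lowest. At P18 they summed to 96077 to 137379 CPM, the highest only just below the lowest P28 sum. Most of each sum was Col1a1, Col3a1 and Postn. Of the 8 tested ligament fibroblast genes, 7 had log2 fold changes above 0 and 1 below (median 0.44), and 3 had an unadjusted edgeR p under 0.05. Of these 8, edgeR called 1 higher and 1 lower, where 0.936% of all genes were called. These were Fmod (log2 fold change 2.97, edgeR, adjusted p = 0.0264) and Tnmd (-2.43, adjusted p = 0.00608). Whether any of these cells held the Ptgis transcripts was not tested.

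Ptgds, which makes prostaglandin D2, had 0 counts in all 8 libraries, so that levels of up to 0.624 CPM in the shallowest and 0.108 CPM in the deepest library remain possible as far as counting error goes. Whether the annotation used for counting could assign reads to Ptgds was not tested. Hpgds, the haematopoietic enzyme for the same product, was detected in every library, at 4.37 to 9.75 CPM at P28 and 0.937 to 8.23 CPM at P18.

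Alox5, the lipoxygenase that starts leukotriene synthesis in myeloid cells, was scarce. It had 8.22, 3.24, 3.42 and 0.208 CPM in P28 replicates 1 to 4, against 12.5, 6.41, 7.6 and 3.26 CPM in P18 replicates 1 to 4. The ages overlapped (-0.97 ± 1.08 on the log2 scale; edgeR, adjusted p = 0.736). Alox5ap, the membrane protein that presents arachidonic acid to that enzyme, had 14.7, 11.8, 7.91 and 24.97 CPM in P28 replicates 1 to 4, against 22.6, 15.5, 16.4 and 18.1 CPM in P18 replicates 1 to 4. Its ages overlapped as well (-0.29 ± 0.55 on the log2 scale; edgeR, adjusted p = 0.859). P28 replicate 4 was the lowest library for Alox5 and the highest for Alox5ap.

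Of the 8 genes other than Alox15, 6 passed the filter on low counts. Ptgis was called higher and 0 were called lower, where 0.936% of all genes were called in either direction. Ptgis in the higher direction, and Ptgs1 and Ptges in the lower, had no P28 library within the P18 range. Over all genes 10.4% had such a gap between the ages, 4.91% higher and 5.54% lower at P28. The genes were listed with these results known, so nothing is read from the counts.

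Other genes of the pathway gave no call in the same fit. Of 87 listed genes, 85 were in the table and 56 were tested; edgeR called 0 in either direction, and 8 had an unadjusted p under 0.05, which over all genes was so for 14.5%. Log2 fold changes were above 0 for 32 and below 0 for 24, with a median of 0.29 against 0.01 over all genes tested. The Wald test of DESeq2 called Pla2g5 higher (adjusted p = 0.00279) and Tbxa2r lower (0.0478), and voom called Pla2g5 higher (0.0457).

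Among the 11 tested genes that release arachidonic acid, Pla2g5, a secreted phospholipase, had 27.0, 48.6, 28.5 and 68.0 CPM in P28 replicates 1 to 4, against 11.8, 4.86, 0.384 and 4.63 CPM in P18 replicates 1 to 4. All P28 libraries lay above all P18 libraries, with a log2 fold change of 2.99 ± 0.80 (by edgeR, adjusted p = 0.102). Pla2g4a, the cytosolic phospholipase best known for supplying arachidonic acid, was scarce, with 0 to 4.29 CPM at P28 and 0 to 5.08 CPM at P18. Pla2g2d and Pla2g15, another secreted and a lysosomal phospholipase, had log2 fold changes of 4.07 ± 2.01 and 1.00 ± 0.56 (by edgeR, adjusted p = 0.383 and 0.452). Pla2g2d had 1.71 CPM in P18 replicate 3 and 0 in the other P18 libraries; without replicate 3 its fitted value was 9.75, which is set against 0 counts and is no bound.

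All 6 of the remaining prostanoid synthase genes were tested. Tbxas1, which makes thromboxane, had 0.822 to 48.7 CPM at P28 and 0.144 to 9.78 CPM at P18 (2.21 ± 1.33 on the log2 scale; edgeR, adjusted p = 0.492). The highest level was in P28 replicate 4, without which the log2 fold change was 0.79, and without P18 replicate 3 it was 3.41. Ptges2, a further prostaglandin E synthase, and Cbr1, a carbonyl reductase that acts on prostaglandins, had log2 fold changes of 0.46 ± 0.39 and -1.21 ± 1.00. Leukotriene synthesis was covered by 6 tested genes. Among them, Lta4h, which makes leukotriene B4, had 61.8, 61.7, 34.2 and 71.4 CPM in P28 replicates 1 to 4, against 77.5, 114, 109 and 120 CPM in P18 replicates 1 to 4. Its P28 libraries all lay below its P18 libraries (-0.88 ± 0.28 on the log2 scale; edgeR, adjusted p = 0.158). Mgst2 and Mgst3, microsomal glutathione transferases, had log2 fold changes of 0.75 ± 0.33 and 0.41 ± 0.46.

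Prostaglandin uptake and breakdown genes numbered 5 tested. Slco2a1, the carrier that takes prostaglandins into cells, had 11.0, 7.10, 1.14 and 0.416 CPM in P28 replicates 1 to 4, against 27.0, 20.9, 16.4 and 30.6 CPM in P18 replicates 1 to 4. The ages did not overlap, but the test was not passed (-2.25 ± 0.89 on the log2 scale; edgeR, adjusted p = 0.260). Hpgd, which inactivates prostaglandins, had at most 1.46 CPM at P28 and 3.11 CPM at P18 and was not tested. Zadh2 and Ptgr1, both prostaglandin reductases, had log2 fold changes of 0.42 ± 0.58 and 0.33 ± 1.18.

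Of 17 receptors listed, 15 were in the table and 6 were tested. Tbxa2r, the thromboxane receptor, had 5.64, 7.94, 8.32 and 14.8 CPM in P28 replicates 1 to 4, against 57.7, 24.6, 22.0 and 17.4 CPM in P18 replicates 1 to 4, without overlap (-1.74 ± 0.57 on the log2 scale; edgeR, adjusted p = 0.174). The prostaglandin E2 receptor genes Ptger1, Ptger3 and Ptger4 had log2 fold changes of 0.59 ± 1.03, -1.09 ± 0.92 and 0.65 ± 1.31, and Ptgfr, the prostaglandin F receptor gene, one of -0.80 ± 0.82. In P28 replicates 1 and 4, Ptger2 reached 5.29 and 5.62 CPM; it was at 0 in P28 replicates 2 and 3 and at 0.0904 CPM or less at P18. Ptgir, the prostacyclin receptor, had 0, 3.03, 9.54 and 0 CPM in P28 replicates 1 to 4, against 0, 0.108, 0 and 3.61 CPM in P18 replicates 1 to 4. It was thus at 3 counts or fewer in 5 of the 8 libraries.

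The remaining lipoxygenase genes were scarce. Alox12 had 1.88 to 11.0 CPM at P28 and 0 to 16.9 CPM at P18, and Aloxe3 at most 5.29 CPM at P28 and 2.44 CPM at P18 (log2 fold changes 0.25 ± 1.44 and 0.49 ± 1.61). Alox15b and Alox12b, lipoxygenases known from skin, had counts only in P28 replicate 2, at 7.10 and 0.627 CPM, the library with the highest epithelial sum. Alox12e had counts only in P18 replicate 4 (1.78 CPM).

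Among 7 tested genes that handle peroxidised or free fatty acids, Gpx4, which reduces lipid peroxides in membranes, had a log2 fold change of 0.50 ± 0.22, Gpx1 one of 0.38 ± 0.25 and Fabp5, a fatty acid carrier, one of 1.44 ± 0.75 (by edgeR, adjusted p = 0.308, 0.529 and 0.412). Fabp5 lay at 590 CPM in P28 replicate 2, and its log2 fold change was -0.15 without that library. Among 5 tested epoxygenase and hydrolase genes, those of Cyp1b1, Ephx1 and Cyp2j4 were -2.42, -0.83 and 1.55 (edgeR, adjusted p = 0.486, 0.516 and 0.692).

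Interleukins 4 and 13 are known to induce Alox15 in monocytes through the factor STAT6. Il13 had 0 counts in all libraries, and Il4 had counts only in P18 replicate 4 (0.204 CPM). Stat6 had 47.9, 49.2, 33.3 and 41.8 CPM in P28 replicates 1 to 4, against 43.7, 77.1, 99.7 and 78.0 CPM in P18 replicates 1 to 4 (-0.79 ± 0.30 on the log2 scale; edgeR, adjusted p = 0.246). Il13ra1, a receptor chain for both, was at most 0.418 CPM at P28 and lay between 1.12 and 3.07 CPM at P18 (-3.09 ± 1.41 on the log2 scale; edgeR, adjusted p = 0.340). Mrc1, a mannose receptor of macrophages, had 51.7 to 107 CPM at P28 and 19.2 to 66.2 CPM at P18 (0.82 ± 0.39 on the log2 scale; edgeR, adjusted p = 0.364). This group counted 8 tested genes, and 3 had log2 fold changes above 0 and 5 below.

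**Figure D4:**
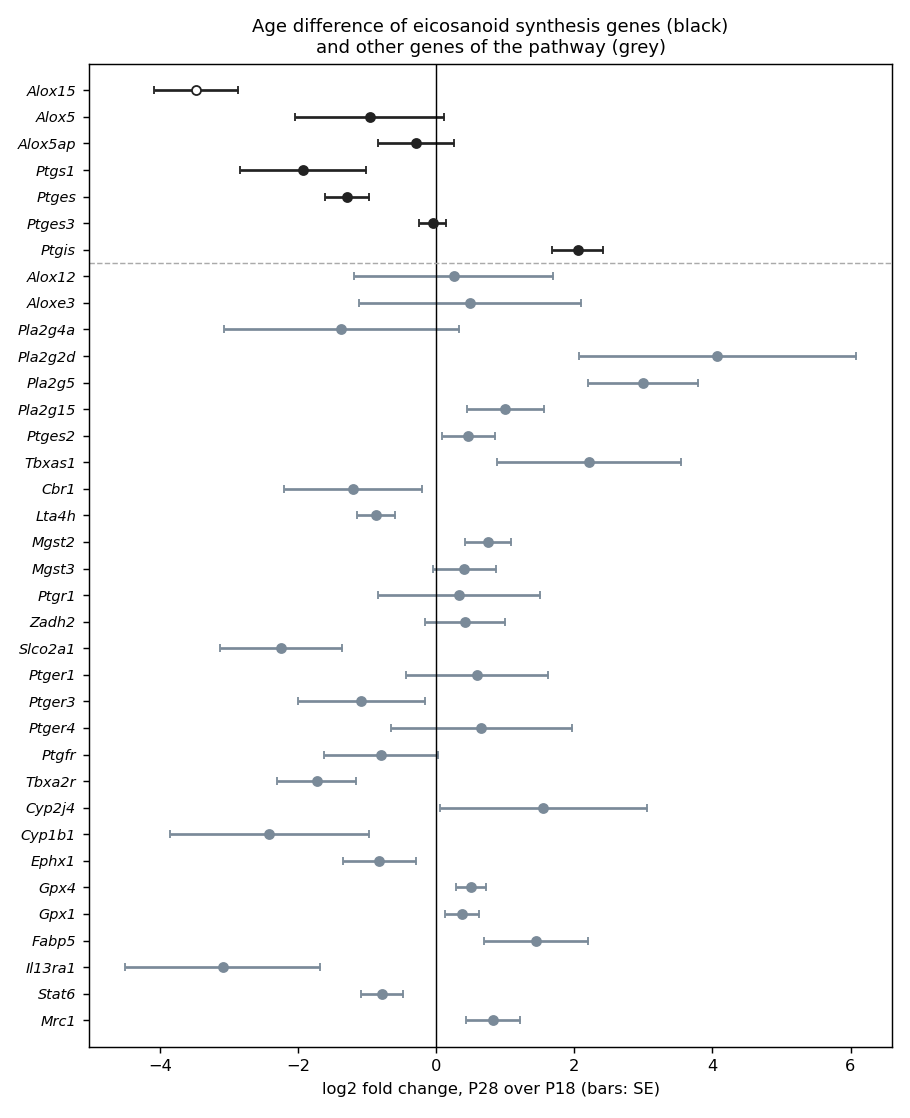
Log2 fold change (P28 over P18) with its SE for the 7 eicosanoid synthesis genes that passed the filter on low counts (black; Alox15 open, since it was chosen for its difference) and for tested genes of the rest of the pathway (grey). Ptgis at 2.05 ± 0.37 is the one filled black point above 0, and Ptges3 lies nearest 0.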

How the data were processed

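The authors deposited raw counts for 17337 gene symbols. The submitters' processing notes name the build rn6 and the tools HTSeq 0.9.1, STAR 2.5.3a and edgeR 3.16.5, with no roles. Which annotation was counted, and whether strand was used, is not given in the sources used here, so reads of overlapping genes cannot be told apart; no gene of the table overlaps a member in RefSeq (GRCr8). Columns were matched to the 8 labelled samples by title, and 40 columns of other samples were not used.

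Counts were fitted over all genes with edgeR 4.0.16 (quasi-likelihood, 2-sided, TMM, expression filter by age with a minimum count of 10, 10472 genes left; R 4.3.3), age as the only term, Benjamini-Hochberg adjustment. Dividing the size of a log2 fold change by the square root of F gave its SE. A prior count of 2 went into log2 CPM. DESeq2 1.42.0 and limma 3.58.1 were alternatives, beside other scalings, filters, a replicate block and leaving out each library. The p-values set the age difference against the spread between these libraries within an age. Replicate libraries differed far beyond counting noise (chi-square per degree of freedom of at least 96.1). The fit was tested on simulated data. The members and lists were chosen with earlier results of these data known. Named genes are the 9 members, per pathway list any called gene or else the 3 with the lowest p, receptors, lipoxygenases, Pla2g4a and Hpgd, and the 5 genes nearest to Alox15 in each of 2 scopes; other genes, such as Hpgds, Il4, Il13, Il5ra and Ccr3, were chosen after their values were seen. Of 204 listed names, 194 matched by symbol, 1 by synonym and 9 not; those are not analysed here. Detection limits cover counting error only.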

Additional observations from a re-analysis of the deposited data

Results flagged for a closer look

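A library stood far from the other 3 of its age (by Dixon's criterion for 4 values) in 14 of 82 tested groups of values; chance flags about 1 in 20. Many of these groups are near 0, where 1 library with a few reads is enough. Ptgis was low in P28 replicate 3 (69.1 CPM), and Ptgs2 was found only in P18 replicate 4 (6.36 CPM). P28 replicate 2 stood high for Fabp5 (590 CPM), Alox15b (7.10 CPM), Hpgd (1.46 CPM) and Alox12b (0.627 CPM). P28 replicate 3 stood low for Alox12 (1.88 CPM) and high for Cbr1 (7.09 CPM), and P28 replicate 1 stood high for Pla2g4a (4.29 CPM). At P18, replicate 4 stood high for Ptgir (3.61 CPM), Hpgd (3.11 CPM) and Alox12e (1.78 CPM), replicate 3 for Pla2g2d (1.71 CPM) and replicate 1 for Ptger2 (0.0904 CPM).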

How the results depend on the processing

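Alox15 kept its direction in all 15 alternatives (log2 fold change -4.11 to -3.03). Over all genes, 54 were called higher and 44 lower; leaving out 1 library gave 4 to 110 higher and 5 to 105 lower (fewest without P18 replicate 2, most without P28 replicate 4), the Wald test of DESeq2 297 and 263, and voom 175 and 132. Members other than Alox15 called higher numbered 0 to 1 leaving out 1 library. Ptges was called lower, the 1 such member, by DESeq2 and by voom; these also called 1 pathway gene higher (Pla2g5), and DESeq2 1 lower (Tbxa2r). The replicate block gave 16 calls higher and 10 lower, with 0 members other than Alox15 called higher (Ptgis adjusted p = 0.108); same-numbered libraries deviated from their age means with correlations of -0.0196 to 0.00189, and 0 of the 4 P28 libraries were most like the P18 library of their number, so the numbers do not pair them. Signs of uncalled log2 fold changes turned under voom for Ptgr1 (-0.47), Ptgfr (0.16) and Ptger4 (-0.65), and under the block for Ptgr1 (-0.23). Leaving out 1 library, the ranges crossed 0 for Ptges3 (-0.13 to 0.0136), Alox12 (-0.17 to 1.13), Aloxe3 (-0.46 to 0.89), Zadh2 (-0.14 to 0.75), Ptgr1 (-0.91 to 0.74) and Fabp5 (-0.15 to 1.82). Counts of Ptgs2, Ptgir and Hpgd were 0 in 7, 4 and 4 of the 8 libraries. For each gene, some library at 0 had a higher total than a library with counts. What set these zeros was not tested.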
